A study of Homo sapiens with 14 samples.

Results

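RNA of MDA-MB-231 cells labelled as treated with RBI2 for 30 min was compared with control RNA, in 4 of the 14 libraries of the series. The members were chosen by their sample labels, 2 RBI2 30 min libraries and 2 control libraries. No measured value entered that rule, although earlier results of these data were known. MDA-MB-231 is an established triple-negative human breast cancer cell line. The cells were seeded overnight in DMEM with 10% FBS, and the treated groups of the series then received 5 µM RBI2, an inhibitor of ribosome biogenesis found in a drug screen, or 5 µM CX-5461, an inhibitor of RNA polymerase I (Pol I), for a labelled 10, 30 or 120 min. The controls are called untreated in the study's methods and DMSO-treated in its results, so the effect of the solvent cannot be told apart from that of RBI2 if the first is right. The deposited tables of the libraries labelled 30 min carry a time token of 10 in their own names, those labelled 10 min a token of 02 and those labelled 120 min a token of 30, so all 3 times are uncertain, and the labelled time is used here throughout. No source says that replicates came from separate cultures, so p-values measure the spread between these libraries, which may be technical.

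Pol I transcribes the long precursor of the ribosomal RNAs in the nucleolus, where processing factors and imported ribosomal proteins build it into ribosomal subunits. Cells that lose this supply are known to react through free ribosomal proteins and p53, and faulty nuclear RNA is tailed with adenines by the TRAMP complex and degraded by the nuclear exosome. The comparison asks what the pool of polyadenylated mRNA looked like shortly after RBI2, beside cells that had none. MDA-MB-231 cells carry a mutant p53.

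The control libraries held 16020768 and 14811266 estimated reads over all transcripts and the RBI2 30 min libraries 21107808 and 14697988, within the range of 14112299 to 24849354 over the series. All 13 markers of triple-negative lines lay above 1 TPM (transcript reads scaled by length and by the library total) in all 4 libraries, and the highest, the intermediate filament gene VIM, lay between 2083.53 and 2694.28 TPM. The hormone receptor gene PGR had no reads, ESR1 at most 0.03 TPM and the epithelial cadherin gene CDH1 at most 0.14 TPM, while 5 of 10 luminal markers, among them KRT19, lay above 1 TPM. Of 11 immune and stromal markers, CD68 and ACTA2 lay above 1 TPM in all 4 libraries, and the summed level of the list was 42.0 and 82.1 TPM in the controls and 52.7 and 53.9 TPM in RBI2 30 min. Control replicate 2 stood apart from every other library, with 20.622% of its reads in mitochondrial genes against 9.547% in control replicate 1 and 9.568% and 8.142% in RBI2 30 min. The genes that passed and the gene lists are therefore also given against each control replicate.

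How many genes differed between RBI2 30 min and the control depended on the setting. Of 15426 genes tested with edgeR's quasi-likelihood test, 11 (0.0713%) had a Benjamini-Hochberg adjusted p under 0.05, and 6 of them (0.0389%) also differed at least 2-fold, 4 higher (0.0259%) and 2 lower (0.013%). With DESeq2 908 genes passed at any fold, among them 7 of the 11, and 28 passed at least 2-fold, among them 2 of the 6. With either a length offset or the replicate block, the noncoding gene ENSG00000258964 alone passed in edgeR. Leaving out either control replicate also changed the number. Of the 11 genes, the higher ones were CASTOR2, FOXK1, WDR4 and the pseudogene ENSG00000268903. CASTOR2 lies at chr7:74964705-75031528, FOXK1 at chr7:4682295-4771442, WDR4 at chr21:42843094-42879568 and ENSG00000268903 at chr1:135141-135895, in GRCh38 as annotated by GENCODE. The lower genes were CLK1, AKAP9, RFC1, RPS15A, RPL9, the pseudogene IKBKGP1 and the noncoding gene ENSG00000258964. CLK1 lies at chr2:200853009-200864691, AKAP9 at chr7:91940840-92110673, RFC1 at chr4:39287456-39366375, RPS15A at chr16:18781295-18790383, RPL9 at chr4:39452587-39458931, IKBKGP1 at chrX:154639978-154648275 and ENSG00000258964 at chr14:61734138-61776260, with counts summed over all annotated transcripts of each. In each of the 11 genes both RBI2 libraries lay on the same side of both control libraries, as did 26.3% of all genes tested on the higher side and 25% on the lower side. The promoters of 6 of the 11 genes were found in the RefSeq table, and there was no entry for CASTOR2, RPS15A, IKBKGP1, ENSG00000258964 and ENSG00000268903.

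The promoters of FOXK1, WDR4 and CLK1 are shown because FOXK1 and WDR4 were the coding genes with an entry that rose and CLK1 had the largest fall among the coding genes that passed. Each line gives the 250 bases before the RefSeq start of the gene in GRCh38.p14, read 5′ to 3′ on the strand of the gene, and capitals mark the GC box GGGCGG on either strand. FOXK1 is at chr7:4682045-4682294 on the plus strand, WDR4 at chr21:42879540-42879789 on the minus strand and CLK1, for the outer of its 2 starts, at chr2:200864659-200864908 on the minus strand.
FOXK1: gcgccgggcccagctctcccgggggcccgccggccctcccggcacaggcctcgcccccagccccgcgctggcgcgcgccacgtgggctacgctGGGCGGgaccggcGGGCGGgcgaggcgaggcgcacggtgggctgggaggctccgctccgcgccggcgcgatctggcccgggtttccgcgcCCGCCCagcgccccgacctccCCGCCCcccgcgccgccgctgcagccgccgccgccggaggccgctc
WDR4: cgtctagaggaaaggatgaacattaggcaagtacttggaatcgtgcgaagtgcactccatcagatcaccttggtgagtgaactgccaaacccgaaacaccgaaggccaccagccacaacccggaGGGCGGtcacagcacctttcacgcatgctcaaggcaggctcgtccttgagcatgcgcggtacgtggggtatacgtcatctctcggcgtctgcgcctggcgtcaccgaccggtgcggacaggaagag
CLK1: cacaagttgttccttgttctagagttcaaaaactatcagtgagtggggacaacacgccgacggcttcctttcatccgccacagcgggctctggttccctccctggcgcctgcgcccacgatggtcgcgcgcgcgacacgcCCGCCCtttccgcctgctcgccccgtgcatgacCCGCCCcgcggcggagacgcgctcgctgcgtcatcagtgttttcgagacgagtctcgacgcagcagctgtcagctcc
The GC box occurred 4 times before FOXK1, 1 time before WDR4 and 2 times before CLK1, and it was present in 42.6% of the 35116 promoters of this length. It was therefore found before a gene that fell as well as before genes that rose, and a match is a description of letters only. The FOXK1 window consisted of G and C for 85.6% of its bases, against 58.4% for WDR4 and 64.4% for CLK1.

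FOXK1, a forkhead transcription factor that represses autophagy genes and is governed by mTORC1, rose about 2-fold in RBI2 30 min. Its level in CPM (counts scaled to the library total) was 66.1 and 62.1 in the controls and 141 and 152 in RBI2 30 min. The groups were far apart, and the 4 levels fell into 2 tight pairs. The log2 fold change was 1.19 ± 0.166 (SE, edgeR's quasi-likelihood test, adjusted p = 0.0393), and it was 1.14 against control replicate 1 and 1.23 against control replicate 2. FOXK1 did not pass with the length offset, with the replicate block or without control replicate 2. At least 98.8% of the FOXK1 reads in each of the 4 libraries went to its main coding transcript. Its paralog FOXK2 stood at 110 and 128 CPM in the controls and 119 and 122 CPM in RBI2 30 min, with overlapping groups. The level of FOXK1 was 98.7 and 150 CPM in RBI2 10 min, 204 and 194 CPM in RBI2 120 min, and 70.4 and 65.0 CPM in CX-5461 30 min.

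CASTOR2, a subunit of the cytosolic sensor through which arginine acts on mTORC1, rose by a like factor from a low level. It had 8.95 and 7.83 CPM in the controls and 17.9 and 18.2 CPM in RBI2 30 min, a log2 fold change of 1.10 ± 0.127 (SE, edgeR, adjusted p = 0.0226), with 0.97 against control replicate 1 and 1.15 against control replicate 2. Every read of CASTOR2 was given to its coding transcript in all 4 libraries, and the related CASTOR1 had at most 27 reads in any library. CASTOR2 shares 958 bases of exon with RCC1L on the opposite strand, and no source says whether the counting used strand, so reads of this pair could not be told apart for certain. WDR4, the partner of METTL1 in the enzyme that methylates guanosine in tRNA, rose from 4.16 and 3.83 CPM to 8.28 and 8.64 CPM (log2 fold change 1.08 ± 0.134, SE, edgeR, adjusted p = 0.0263), with 0.94 and 1.05 against the 2 controls. METTL1 itself stood at 18.3 and 17.3 CPM in the controls and 18.5 and 19.0 CPM in RBI2 30 min.

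ENSG00000268903, a processed pseudogene at the end of chromosome 1, rose from 1.68 and 1.76 CPM to 4.12 and 4.62 CPM (log2 fold change 1.34 ± 0.193, SE, edgeR, adjusted p = 0.0419), with 1.16 and 1.11 against the 2 controls. Salmon may have divided its reads with near-identical copies, so this level is uncertain. It was the one gene of the 4 that rose for which CX-5461 30 min stood at least as high, at 5.19 and 4.71 CPM. WDR4 stood at 6.1 and 6.6 CPM in CX-5461 30 min, also above both controls, and at 8.11 and 9.04 CPM in CX-5461 120 min.

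**Figure D1:**
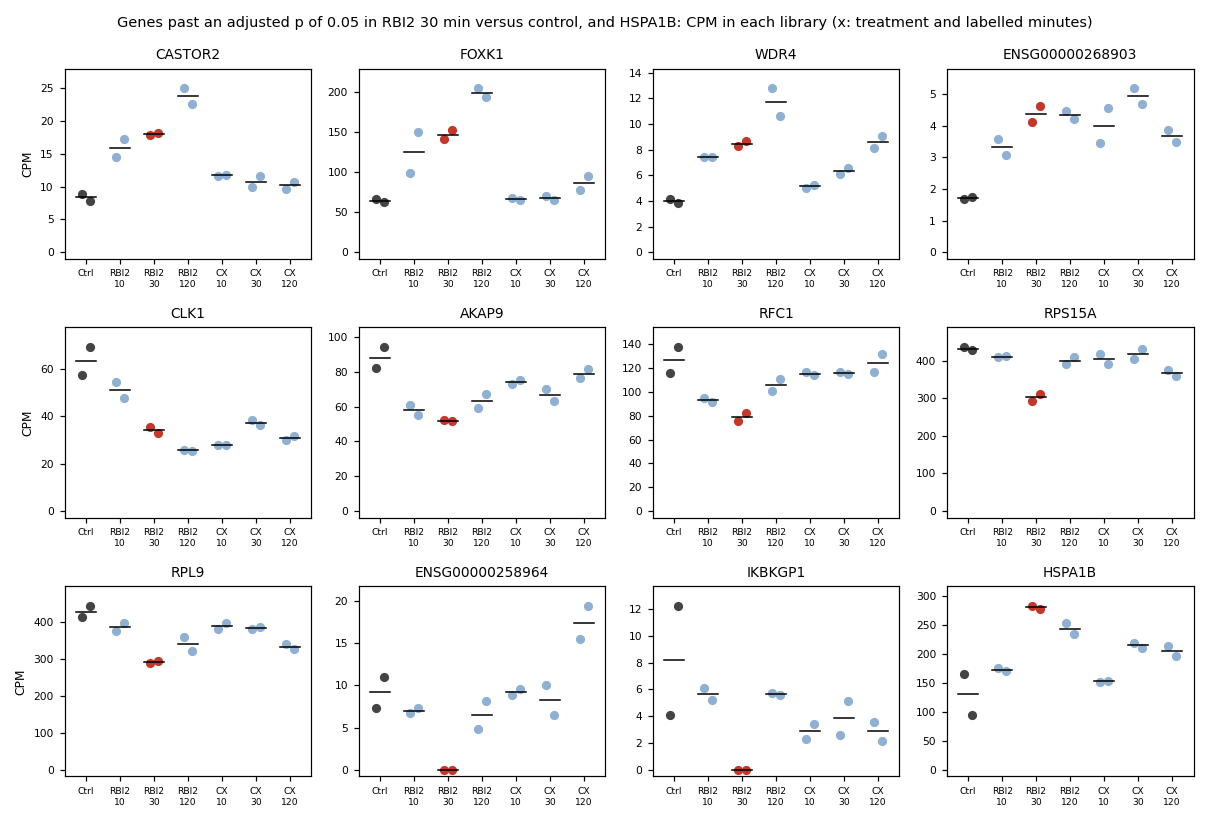
CPM of the 11 genes with an adjusted p under 0.05 and of HSPA1B in each of the 14 libraries (points), with the mean of each group (line); the x axis gives the compound and the labelled minutes, control libraries are dark and RBI2 30 min libraries red. FOXK1 lay at 141 and 152 CPM in RBI2 30 min against 66.1 and 62.1 CPM in the controls, and ENSG00000258964 and IKBKGP1 had no reads in the RBI2 30 min libraries and reads in every other library.

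CLK1, a kinase that phosphorylates the SR proteins of the splicing machinery, fell the most of the expressed coding genes that passed. It had 57.7 and 69.3 CPM in the controls and 35.4 and 33.1 CPM in RBI2 30 min, so that both treated libraries lay well below both controls. The log2 fold change was -0.89 ± 0.104 (SE, edgeR, adjusted p = 0.0226), with -0.74 against control replicate 1 and -1.01 against control replicate 2, and it was -0.26 when the fit took account of the mean transcript length in each library. The main coding transcript of CLK1 received 50.9% and 67.4% of the gene's reads in the controls and 31.2% and 41.7% in RBI2 30 min. A transcript annotated for nonsense-mediated decay, CLK1-204, received none in the controls and 20.4% and 16.5% in RBI2 30 min, by Salmon's own division of shared reads, which was not tested. CLK1 was also low in CX-5461 30 min, at 38.3 and 36.4 CPM, and the difference between the compounds there was -0.12 on the log2 scale (edgeR, adjusted p = 0.9).

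AKAP9, a large scaffold protein of the centrosome and Golgi, had 82.2 and 94.2 CPM in the controls and 52.3 and 51.5 CPM in RBI2 30 min (log2 fold change -0.77 ± 0.099, SE, edgeR, adjusted p = 0.0263), with -0.66 and -0.85 against control replicates 1 and 2. RFC1, the large subunit of the clamp loader of DNA replication, fell from 116 and 138 CPM to 75.2 and 82.0 CPM (log2 fold change -0.69 ± 0.098, SE, edgeR, adjusted p = 0.0403), with -0.56 and -0.81. The main transcript of RFC1 held 38.5% of its reads in control replicate 2 and between 85.3% and 91.8% in the other libraries compared. With the transcript lengths in the fit the values were -0.18 for AKAP9 and -1.88 for RFC1. Both genes were lower than both controls, and for RFC1 the 2 controls also differed in the transcripts seen.

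Of the ribosomal protein genes, RPS15A of the small subunit and RPL9 of the large subunit passed. RPS15A had 436 and 428 CPM in the controls and 293 and 312 CPM in RBI2 30 min (log2 fold change -0.51 ± 0.067, SE, edgeR, adjusted p = 0.0263), with -0.53 and -0.50 against control replicates 1 and 2. RPL9 had 412.5 and 442.9 CPM in the controls and 289 and 294 CPM in RBI2 30 min (log2 fold change -0.55 ± 0.073, SE, edgeR, adjusted p = 0.0286), with -0.50 and -0.60. Both genes have many processed pseudogenes, to which reads can be assigned. With the transcript lengths in the fit the value of RPL9 was -0.25.

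ENSG00000258964 and IKBKGP1 had no reads in either RBI2 30 min library. ENSG00000258964, a lncRNA on chromosome 14, had 118 and 138 reads in the controls and was at least 112-fold lower in RBI2 30 min, with a floor of 3 counts over the group (edgeR, adjusted p = 0.00342), or at least 89.3-fold lower than control replicate 1 and 134-fold lower than control replicate 2. It had between 82 and 380 reads in each of the other 12 libraries, and 78.5% of its 720 exonic bases also belong to SNAPC1, a subunit of the factor that starts snRNA transcription, on the same strand. SNAPC1 had 124 and 148 CPM in the controls and 115 and 117 CPM in RBI2 30 min, and the sum of both was 131 and 159 CPM against 115.1 and 116.8 CPM. A further 20.6% of its exonic bases belong to HIF1A, the oxygen-regulated subunit of HIF-1, at 173.5 and 364.6 CPM in the controls and 147.8 and 152.5 CPM in RBI2 30 min. IKBKGP1, a pseudogene of IKBKG (NEMO, the regulatory subunit of the IKK complex), had 66 and 153 reads in the controls and was at least 99.4-fold lower than their mean (edgeR, adjusted p = 0.0263), or at least 49.9-fold lower than control replicate 1 and 149-fold lower than control replicate 2. Summed over the gene and the pseudogene, the level was 30.8 and 24.6 CPM in the controls and 31.3 and 34.1 CPM in RBI2 30 min, so that the sum was not lower. Reads of such pairs are split by estimation, and a loss in one member was not separated from a shift to the other.

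The heat shock genes held the highest change among the chaperones, in HSPA1B, one of the near-identical genes of inducible HSP70. HSPA1B had 166 and 95.2 CPM in the controls and 282 and 278 CPM in RBI2 30 min, and the treated libraries lay above both controls. Its log2 fold change of 1.10 ± 0.186 did not pass (SE, edgeR, adjusted p = 0.0854). The controls differed from each other by more than the RBI2 libraries did, and without control replicate 2 the value was 0.75 (edgeR, adjusted p = 0.0105). It also passed with the GC and length correction, at 0.85 (edgeR, adjusted p = 0.0234), and in DESeq2 (adjusted p = 1.27e-05), and the adjusted p ranged from 7.48e-21 without a filter to 0.546 with the 4 libraries alone. Since reads of HSPA1A and HSPA1B are hard to tell apart, the sum of both was also formed after the values were seen. It was 217 and 172 CPM in the controls, 367 and 361 CPM in RBI2 30 min, and 281 and 282 CPM in CX-5461 30 min. The mean of the sum in RBI2 30 min was 1.87 times the control mean.

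The promoters of this pair are shown because heat shock genes are switched on through the paired heat shock element, whose core was searched as GAANNTTC, which reads alike on both strands and is in capitals. HSPA1A is at chr6:31815293-31815542 and HSPA1B at chr6:31827488-31827737, both on the plus strand of GRCh38.p14, 250 bases before the RefSeq start.
HSPA1A: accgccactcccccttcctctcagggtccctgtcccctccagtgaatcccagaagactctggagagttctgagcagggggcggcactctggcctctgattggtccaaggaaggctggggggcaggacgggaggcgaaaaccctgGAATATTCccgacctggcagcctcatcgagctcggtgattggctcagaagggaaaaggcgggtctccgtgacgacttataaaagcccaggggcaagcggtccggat
HSPA1B: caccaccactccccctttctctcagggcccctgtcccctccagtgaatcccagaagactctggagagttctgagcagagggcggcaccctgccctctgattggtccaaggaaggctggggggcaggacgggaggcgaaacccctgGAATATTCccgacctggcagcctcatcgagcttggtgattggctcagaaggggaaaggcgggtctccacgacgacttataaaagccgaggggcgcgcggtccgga
Each promoter held 1 such element, which was present in 5.78% of all promoters of this length and in none of the 6 genes with an adjusted p under 0.05 that had an entry. DNAJB1, the HSP40 partner of HSP70, stood at 125 and 107 CPM in the controls and 158 and 149 CPM in RBI2 30 min (log2 fold change 0.41 ± 0.079, SE, edgeR, adjusted p = 0.0918). Of 13 chaperone genes tested, 4 were higher and 1 lower at an unadjusted p under 0.05, where 12.6% of all genes were higher and 13.2% lower. The higher members were HSPA1B, DNAJB1, HSF1 and HSPA1A, and the lower one was the mitochondrial chaperonin gene HSPD1 (-0.17). The median of the list was -0.04, beside -0.01 over all genes, with 0.04 against control replicate 1 and -0.05 against control replicate 2.

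Among the genes of ribosome production the Pol I machinery was close to the background. Of its 21 genes, 1 was higher and 2 lower at an unadjusted p under 0.05, where 12.6% of all genes were higher and 13.2% lower, and the median log2 fold change was -0.02, with -0.04 against control replicate 1 and -0.02 against control replicate 2. POLR2K, a small subunit shared by the RNA polymerases, had the smallest p of the list, with 63.6 and 86.9 CPM in the controls and 54.0 and 53.5 CPM in RBI2 30 min (log2 fold change -0.48). TAF1B and TAF1D, further members of SL1, had -0.27 and -0.13. TAF1C, a subunit of the Pol I initiation factor SL1, had 30.0 and 22.5 CPM in the controls and 34.0 and 34.4 CPM in RBI2 30 min. None of these genes had an adjusted p under 0.05 with edgeR.

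Of 54 genes listed as ribosome biogenesis factors, only WDR4 passed, whose role given above is in tRNA methylation. The list was chosen with earlier results of these data known, so the passing of WDR4 does not test it. At an unadjusted p under 0.05, 8 members were higher and 22 (40.7%) lower, where 12.6% of all genes were higher and 13.2% lower. The list median was -0.11. The lower members included NPM1, the abundant nucleolar chaperone, at 2529 and 2954 CPM in the controls and 2198 and 2156 CPM in RBI2 30 min (log2 fold change -0.33). They also included GNL3, a nucleolar GTPase, at 275 and 316 CPM against 240 and 243 CPM, and LTV1, a factor of small subunit maturation, at 82.8 and 107 CPM against 69.5 and 68.2 CPM. The higher members included TCOF1, the nucleolar protein treacle, with 0.29. The median of the list was -0.08 against control replicate 1 and -0.15 against control replicate 2.

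The 80 cytosolic ribosomal protein genes tested had 24 (30%) lower and 0 higher at an unadjusted p under 0.05, where 13.2% and 12.6% of all genes were, and RPS15A and RPL9 passed the adjusted test. RPL17, with 473 and 509 CPM in the controls and 353 and 366 CPM in RBI2 30 min, and RPL26, with 1147 and 1415 CPM against 890 and 895 CPM, came next (edgeR, adjusted p = 0.0854 and 0.0918). Both controls lay above both RBI2 libraries in 33 of the 80 genes, and in 0 were both below, beside 25% and 26.3% of all genes. The size depended on the control, with a median of -0.19 against control replicate 1 and 0.04 against control replicate 2, so the sign of the median differed between them. In the edgeR fit the list median was 0.03 without control replicate 1 and -0.20 without control replicate 2. The comparisons without control libraries share the 2 RBI2 30 min libraries. Against CX-5461 30 min, 37 of the 80 genes were lower at an unadjusted p under 0.05 where 2.31% of all genes were, and none was higher where 5.48% were, with a median of -0.24. All 80 genes were higher in replicate 2 of CX-5461 30 min than in its replicate 1, and the median was -0.12 against replicate 1 and -0.36 against replicate 2. Over all genes this contrast also ran with the length of the leading transcript, from a median of -0.10 in the shortest of 5 classes to 0.12 in the longest, and the median length in the list was 588 bases. The part of either in the result was not tested. Against RBI2 10 min 17 were lower where 4.73% of all genes were, and none higher where 4.48% were. Against RBI2 120 min 15 were lower where 6.44% were, and none higher where 3.9% were.

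The nuclear RNA decay and poly(A) genes bear on the study's interest in tailed ribosomal RNA precursor. Of 23 genes of TRAMP, NEXT and the nuclear exosome, 11 (47.8%) were lower and 1 higher at an unadjusted p under 0.05, where 12.6% of all genes were higher and 13.2% lower, with a median of -0.26, and none passed with edgeR after adjustment. DIS3, the exosome's processive nuclease, stood at 76.4 and 103 CPM in the controls and 60.6 and 61.6 CPM in RBI2 30 min (log2 fold change -0.55, edgeR, adjusted p = 0.108). EXOSC9 of the exosome ring stood at 99.7 and 118 CPM against 83.7 and 88.1 CPM, and EXOSC6 of the same ring at 61.7 and 46.7 CPM against 71.2 and 73.8 CPM, in the opposite direction. RBM7, an RNA-binding subunit of NEXT, had a log2 fold change of -0.42. The list median was -0.09 against control replicate 1 and -0.39 against control replicate 2.

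The study names PABPC1, the main cytoplasmic poly(A) binding protein, and its partner ATXN2 among the mRNAs lower at all its RBI2 times. Its differential genes needed an unadjusted p under 0.05 and a log2 change of 1 or more in size. PABPC1 had 1515 and 2333 CPM in the controls and 1267 and 1229 CPM in RBI2 30 min, without overlap (log2 fold change -0.62 ± 0.152, SE, edgeR, adjusted p = 0.106). ATXN2 had 61.9 and 120 CPM in the controls and 59.3 and 61.4 CPM in RBI2 30 min, so that RBI2 lay next to control replicate 1 and far below control replicate 2 (log2 fold change -0.59, edgeR, adjusted p = 0.15). Both falls were less than 2-fold here. In CX-5461 30 min PABPC1 stood at 1449 and 1372 CPM and ATXN2 at 57.1 and 52.5 CPM, also below both controls. GAPDH, the study's reference gene, had 3373 and 2913 CPM in the controls and 3318 and 3209 CPM in RBI2 30 min, with overlap and a log2 fold change of 0.05 that became -0.11 after correction for GC content and length. CNOT7, a deadenylase, and PAIP2, an inhibitor of PABPC1, had log2 fold changes of -0.30 and -0.22. Of 20 poly(A) binding and deadenylation genes, 6 were lower and 0 higher at an unadjusted p under 0.05, where 12.6% of all genes were higher and 13.2% lower, with a median of -0.03 against control replicate 1 and -0.21 against control replicate 2.

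The genes of splicing regulation leaned to lower levels against both controls. Of 17 CLK and SRPK kinases and SR proteins, 9 (52.9%) were lower and 0 higher at an unadjusted p under 0.05, and 13 lay below both controls, where 13.2% of all genes were lower, 12.6% higher and 25% below both controls. CLK1 alone passed. SRSF5, an SR protein, stood at 188 and 209 CPM in the controls and 140 and 136 CPM in RBI2 30 min (log2 fold change -0.52 ± 0.081, SE, edgeR, adjusted p = 0.0622). CLK4, the closest relative of CLK1, stood at 13.2 and 17.3 CPM against 10.1 and 9.63 CPM, while CLK2 overlapped at 19.3 and 26.2 CPM against 21.1 and 21.0 CPM. SRPK2, an SR protein kinase, had a log2 fold change of -0.41. The list median was -0.13 against control replicate 1 and -0.31 against control replicate 2.

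**Figure D2:**
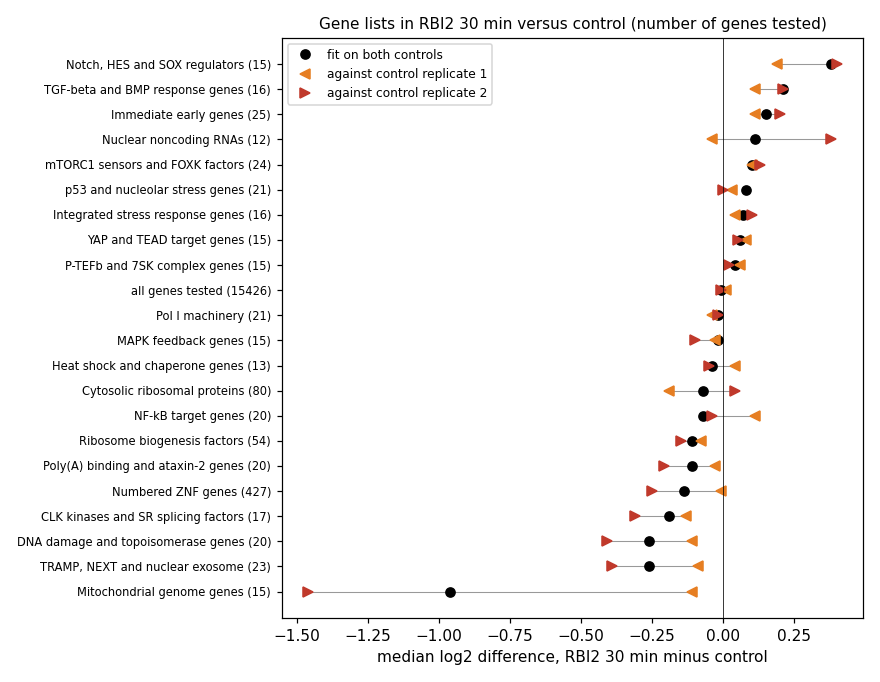
Median log2 difference between RBI2 30 min and control for each gene list, with the number of genes tested in brackets, from the fit on both controls (dots) and against each control replicate (triangles). The mitochondrial genes moved from -0.11 against replicate 1 to -1.46 against replicate 2, and the median of the cytosolic ribosomal proteins had opposite signs against the 2 controls.

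Of 25 immediate early genes, which answer growth factors and stress within minutes, 8 (32%) were higher and 1 lower at an unadjusted p under 0.05, where 12.6% of all genes were higher and 13.2% lower, with a median of 0.15, and none passed with edgeR after adjustment. SRF, the factor that switches on many of them, stood at 107.5 and 100.6 CPM in the controls and 126.8 and 128.5 CPM in RBI2 30 min, with a log2 fold change of 0.30 that became -0.08 after correction for GC content and length, and the orphan receptor gene NR4A1 at 1.49 and 1.44 CPM against 2.43 and 2.97 CPM. MYC, the driver of ribosome production, stood at 178 and 193 CPM against 154 and 155 CPM, below both controls (log2 fold change -0.26, edgeR, adjusted p = 0.11). CSRNP1, a nuclear early response protein, had a log2 fold change of 0.69. The list median was 0.11 against control replicate 1 and 0.20 against control replicate 2.

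Of 16 TGF-beta and BMP response genes, 7 (43.8%) were higher and 0 lower at an unadjusted p under 0.05, with a median of 0.21, 0.11 against control replicate 1 and 0.21 against control replicate 2. Over all genes 12.6% were higher and 13.2% lower, beside which the counts of these lists stand. SMAD6, an inhibitory SMAD, stood at 1.68 and 1.60 CPM in the controls and 3.23 and 2.97 CPM in RBI2 30 min (log2 fold change 0.92, edgeR, adjusted p = 0.106). SKI, a SMAD repressor, and TGFBI, a matrix protein, had 0.27 and 0.20. Of 15 Notch, HES and SOX regulators, 6 were higher and 1 lower, with a median of 0.38, 0.19 and 0.40 against the 2 controls. HES1, a repressor downstream of Notch, stood at 22.1 and 17.9 CPM against 29.5 and 27.1 CPM, and SOX13, NRARP and SOX12 had log2 fold changes of 0.38, 0.61 and 0.23. Of 15 YAP and TEAD targets, 4 were higher and 0 lower, with a median of 0.06, 0.08 and 0.05 against the 2 controls, led by the matricellular gene CCN1 at 685 and 673 CPM against 840 and 811 CPM (log2 fold change 0.28 ± 0.056, SE, edgeR, adjusted p = 0.0918). AJUBA, TEAD3 and AMOTL2 had 0.44, 0.22 and 0.17. In these genes the treated libraries lay above both controls, but by less than 2-fold.

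The stress pathways were mixed. Of 21 p53 and nucleolar stress genes, 4 were higher and 4 lower at an unadjusted p under 0.05, with a median of 0.08, 0.03 against control replicate 1 and 0 against control replicate 2. MDM4, an inhibitor of p53, stood at 42.3 and 38.5 CPM in the controls and 53.8 and 52.4 CPM in RBI2 30 min, and the death receptor gene FAS at 5.35 and 5.59 CPM against 3.46 and 3.56 CPM, while RPL5, a ribosomal protein that binds MDM2, had a log2 fold change of -0.21. Of 16 genes of the integrated stress response, 5 were higher and 1 lower, with a median of 0.07, 0.04 and 0.10 against the 2 controls. CHAC1, a glutathione-degrading enzyme, stood at 1.31 and 0.959 CPM against 2.71 and 2.18 CPM, and TRIB3, a pseudokinase, at 16.3 and 10.6 CPM against 21.2 and 20.0 CPM, while the amino acid transporter gene SLC7A5 had a log2 fold change of 0.24 and the chaperone gene HSPA5 -0.22. Of 20 NF-kB targets 4 were higher and 1 lower, of 15 MAPK feedback genes 1 each way, and of 15 P-TEFb and 7SK genes 5 were higher and 3 lower, where 12.6% of all genes were higher and 13.2% lower. The medians against control replicate 1 and control replicate 2 were 0.11 and -0.04 for the NF-kB targets, -0.03 and -0.10 for the MAPK feedback genes, and 0.06 and 0.02 for the P-TEFb and 7SK genes. Of the NF-kB targets, TNFAIP2, NFKB2, LIF and BIRC2 had the smallest p, with log2 fold changes of 0.53, 0.30, 0.37 and -0.29. Of the MAPK feedback genes these were DUSP7, DUSP6, PHLDA1 and SPRED2, with 0.23, -0.22, -0.14 and -0.32. Of the P-TEFb and 7SK genes, NELFA and NELFB of the elongation factor NELF had 0.35 and 0.58, and the cyclin genes CCNT1 and CCNT2 -0.56 and -0.54. Of 12 nuclear noncoding RNAs 1 was higher and 1 lower, with a median of -0.04 against control replicate 1 and 0.38 against control replicate 2, and GAS5, RN7SL1 and SNHG1 had -0.22, 1.24 and -0.09. The value of RN7SL1 was 0.42 against control replicate 1 and 3.37 against control replicate 2. Of 20 DNA damage and topoisomerase genes 7 were lower and 1 higher, with a median of -0.11 against control replicate 1 and -0.41 against control replicate 2, and TOP2A, TDP1, CHEK1 and XRCC5 had log2 fold changes of -0.31, -0.29, -0.29 and -0.27. None of these genes passed with edgeR after adjustment. Of 24 mTORC1 sensor genes and FOXK factors, FOXK1 and CASTOR2 passed, where 0.0713% of all genes did. This list was chosen with earlier results of these data known, so the passing of these genes does not test the list. At an unadjusted p under 0.05 3 (12.5%) were higher and 0 lower, which is close to the 12.6% of all genes that were higher. After these came WDR59 of the GATOR complex, with a log2 fold change of 0.21, and the Rag GTPase RRAGA, with 0.24. The list median was 0.10 against control replicate 1 and 0.13 against control replicate 2.

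Many of these lists moved with base composition, which separated the 2 controls. The genes were divided into 5 equal classes by the GC content of the leading transcript. In the class of lowest GC content, the median log2 difference between RBI2 30 min and control was -0.07 against control replicate 1 and -0.37 against control replicate 2. In the class of highest GC content it was 0.14 and 0.54. Control replicate 2 differed from control replicate 1 by 0.30 and -0.40 in the same classes, and the RBI2 30 min libraries differed from each other by 0.04 and -0.01. Of the genes at an unadjusted p under 0.05, 900 of the lowest class were lower and 37 higher, and 17 of the highest class were lower and 1192 higher. After a correction of each library for GC content and length, the list medians were 0 for the immediate early genes, 0.09 for the TGF-beta and BMP genes, 0.04 for the Notch, HES and SOX genes, -0.11 for TRAMP, NEXT and the exosome, and -0.09 for the splicing regulators, whose uncorrected median was -0.19. The median of the ribosomal proteins was -0.07 before the correction and -0.09 after it. The median of the DNA damage and topoisomerase genes moved from -0.26 to -0.09, that of the poly(A) genes from -0.11 to -0.02 and that of the YAP and TEAD targets from 0.06 to -0.10. The values of DUSP7, PHLDA1, SKI, SOX12, TEAD3, AMOTL2, NFKB2, SLC7A5, TAF1D and SNHG1 changed sign with the correction. Of the 11 genes, 8 still had an adjusted p under 0.05 with the correction in edgeR, and AKAP9, RPL9 and ENSG00000268903 did not. The correction also moved the log2 fold change of FOXK1 to 0.87, of CASTOR2 to 0.79 and of WDR4 to 0.84.

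**Figure D3:**
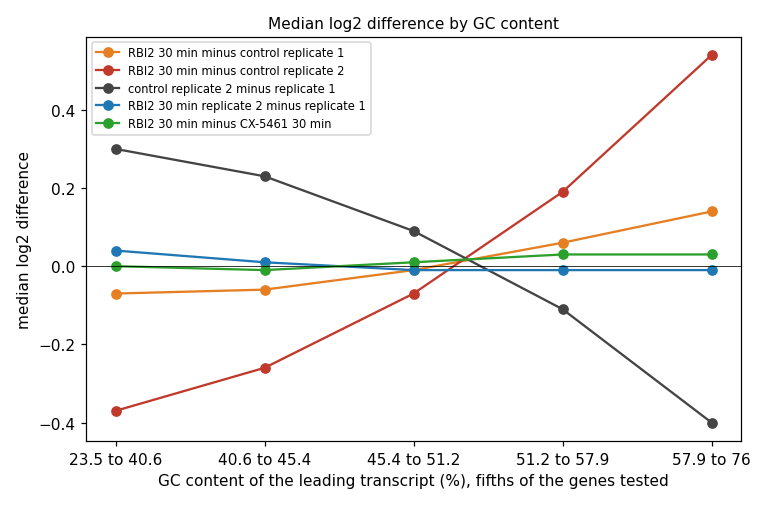
Median log2 difference in 5 equal classes of the 15426 genes tested, ordered by the GC content of the leading transcript (x axis, percent), for RBI2 30 min against each control, between the replicates of each group, and against CX-5461 30 min. The line against control replicate 2 runs from -0.37 to 0.54, the line against control replicate 1 from -0.07 to 0.14, and the line for the RBI2 30 min pair stays between -0.01 and 0.04.

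The genes of the mitochondrial genome differed between the controls, with a list median of -0.96 that was -0.89 after the correction. Of 15 tested, 13 were lower at an unadjusted p under 0.05 where 13.2% of all genes were, and none passed with edgeR after adjustment. MT-ATP6, a subunit of ATP synthase, had 10750 and 30630 CPM in the controls and 9869 and 7948 CPM in RBI2 30 min, and MT-ATP8 had 1879 and 7398 CPM against 1530 and 1356 CPM. MT-ND4L and MT-ND4, subunits of complex I, had log2 fold changes of -1.49 and -1.11. RBI2 30 min lay close to control replicate 1 and far below control replicate 2. The list median was -0.11 against the first and -1.46 against the second, and 0.02 against CX-5461 30 min.

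Across all genes, RBI2 30 min differed over 2-fold from control replicate 1 in 207 genes and from control replicate 2 in 1032, and in 78 genes it differed from both in the same direction. The 2 controls were 2-fold apart in 812 genes and the 2 RBI2 30 min libraries in 194. At an unadjusted p under 0.05 and at least 2-fold, 341 genes (2.21%) differed, 167 (1.08%) higher and 174 (1.13%) lower. Pseudogenes and read-through genes were among the largest of these that did not pass, and whether their reads belong to other genes was not tested. RAB43, a small GTPase, stood at 5.59 and 9.67 CPM in the controls and 20.3 and 30.8 CPM in RBI2 30 min, EFHD1, a calcium-binding protein of mitochondria, at 2.05 and 0 CPM against 3.37 and 9.11 CPM, and RN7SL2, an RNA of the signal recognition particle, at 13.8 and 4.15 CPM against 25.5 and 16.2 CPM. On the lower side, the pseudogene EIF2S2P4 stood at 21.9 and 61.4 CPM against 4.35 and 0 CPM, and the read-through gene CFAP298-TCP10L at 5.78 and 24.0 CPM against 1.64 and 1.78 CPM. These genes were named by a rule that required groups without overlap, and the spread within a group was wide.

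**Figure D4:**
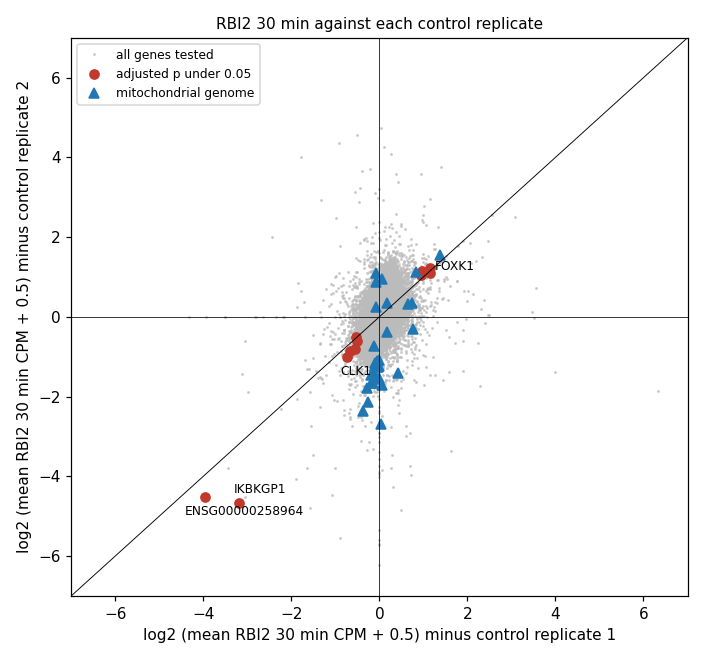
Log2 difference between the mean of the RBI2 30 min libraries and control replicate 1 (x axis) or control replicate 2 (y axis), each computed on CPM + 0.5, for all genes tested, with the 11 genes with an adjusted p under 0.05 in red and genes of the mitochondrial genome as triangles; 2 genes fall outside the axes. FOXK1 lay at 1.14 and 1.23 and CLK1 at -0.74 and -1.01, near the diagonal, while the cloud of genes is wider along the y axis (SD 0.62) than along the x axis (SD 0.323).

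Set beside CX-5461 at the same dose and labelled time, RBI2 30 min differed at an adjusted p under 0.05 in 2 genes (0.013%), with no control library in the contrast. ENSG00000258964 was at least 101-fold lower. The histone gene H4C3, whose mRNA normally carries no poly(A) tail, stood at 0.608 and 0.594 CPM in RBI2 30 min, 4.19 and 4.71 CPM in CX-5461 30 min and 1.62 and 1.12 CPM in the controls (log2 fold change -2.87 ± 0.303, SE, edgeR, adjusted p = 0.0132). H4C3 is under the level set for named genes and was chosen after its values were seen. FOXK1 was 1.11 higher than in CX-5461 30 min on the log2 scale and CASTOR2 0.74 higher, and neither passed (edgeR, adjusted p = 0.155 and 0.253). At an unadjusted p under 0.05 and at least 2-fold, 223 genes (1.45%) differed, 175 (1.13%) higher and 48 (0.311%) lower.

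Against RBI2 10 min, 9 genes (0.0583%) differed at least 2-fold at an adjusted p under 0.05, 3 (0.0194%) higher and 6 (0.0389%) lower, and 29 (0.188%) differed at any fold. Of 15 MAPK feedback genes, 6 were higher and 3 lower at an unadjusted p under 0.05, where 4.48% and 4.73% of all genes were. By the same rule 1 of 16 TGF-beta and BMP response genes was higher and 7 were lower. Of 17 CLK and SRPK kinases and SR proteins, 1 was higher and 8 were lower. SMAD7, an inhibitory SMAD, had 11.7 and 11.2 CPM in RBI2 30 min, 35.6 and 32.6 CPM in RBI2 10 min and 9.82 and 8.39 CPM in the controls (log2 fold change -1.57 ± 0.117, SE, edgeR, adjusted p = 0.000382). SKIL, a repressor of SMAD signalling, had 17.7 and 20.5 CPM against 45.7 and 48.3 CPM (log2 fold change -1.30, edgeR, adjusted p = 0.038). ID2, an inhibitor of bHLH factors, had 4.82 and 5.67 CPM against 12.7 and 12.6 CPM (log2 fold change -1.28, edgeR, adjusted p = 0.00134), and BHLHE40, a clock and hypoxia repressor, fell by 1.31 on the log2 scale (edgeR, adjusted p = 0.000382). In SKIL and ID2 the RBI2 30 min libraries overlapped the controls, at 13.98 and 22.93 CPM and 5.28 and 5.91 CPM, while in SMAD7 and BHLHE40 they lay just above both.

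SPRY1, an inhibitor of receptor tyrosine kinase signalling, was higher in RBI2 30 min than in RBI2 10 min, with 13.7 and 13.0 CPM against 6.38 and 6.73 CPM (log2 fold change 1.03, edgeR, adjusted p = 0.0164), and it overlapped the controls. KLF6, a zinc finger factor, had 170 and 160 CPM against 88.4 and 81.8 CPM (log2 fold change 0.95, edgeR, adjusted p = 0.00152), and both pairs lay on opposite sides of the controls at 141 and 126 CPM. DUSP1, a MAPK phosphatase, and HES1 were lower than in RBI2 10 min by less than 2-fold (log2 fold change -0.74 and -0.93, edgeR, adjusted p = 0.00684 and 0.0108). In CX-5461 10 min, SPRY1 stood at 7.17 and 7.39 CPM and HES1 at 46.1 and 42.7 CPM, on the same side of the controls as in RBI2 10 min. SMAD7 stood at 15.04 and 12.34 CPM in CX-5461 10 min, above both controls but below both RBI2 10 min libraries. A part of the differences from RBI2 10 min was therefore shared by the other compound. RPS15A also passed, with -0.44 (edgeR, adjusted p = 0.0346).

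**Figure D5:**
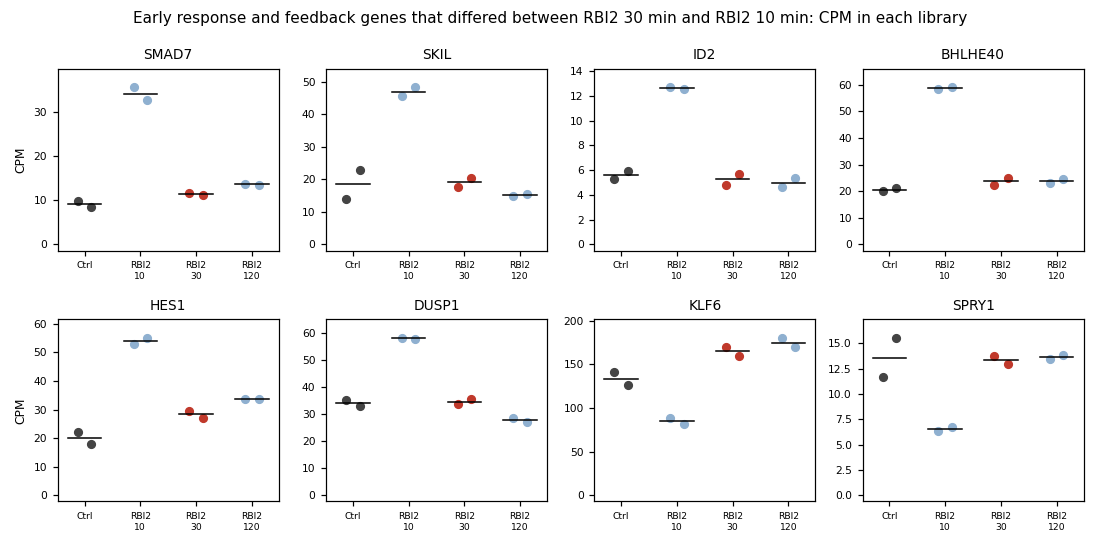
CPM of 8 genes with an adjusted p under 0.05 between RBI2 30 min and RBI2 10 min, in each control and RBI2 library (points) with group means (lines); the x axis gives the labelled minutes. Of the groups drawn, SMAD7, SKIL, ID2, BHLHE40, HES1 and DUSP1 were highest in RBI2 10 min, and KLF6 and SPRY1 were lowest there. The CX-5461 groups are not drawn.

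Against RBI2 120 min, 2 genes (0.013%) passed, both without reads in RBI2 30 min. ENSG00000258964 was at least 78.9-fold lower. ENSG00000262526 had no reads in RBI2 30 min or in the controls and 406 and 286 reads in RBI2 120 min, at least 272-fold more. The same gene had no reads in RBI2 10 min and CX-5461 30 min. It stood at 18.7 and 27.41 CPM in CX-5461 10 min and at 25.55 and 24.97 CPM in CX-5461 120 min. Its presence therefore did not follow the compound or the labelled time alone, and whether its reads belong to other genes was not tested. FOXK1, CASTOR2 and WDR4 stood 0.44, 0.40 and 0.47 lower in RBI2 30 min than in RBI2 120 min on the log2 scale, which did not pass (edgeR, adjusted p = 0.379, 0.295 and 0.256). At an unadjusted p under 0.05 and at least 2-fold, 247 genes (1.6%) differed, 56 (0.363%) higher and 191 (1.24%) lower.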

How the data were processed

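Poly(A) RNA was sequenced from stranded libraries. Reads matching the rDNA repeat were first set aside by the authors, and Salmon then quantified the remaining reads on GRCh38 transcripts (1.3.0 in the submitters' processing notes). The deposited files give estimated counts and TPM per transcript, which the authors neither rounded nor, for the counts, normalized, and the effective length of each transcript, which served for the length offset.

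Estimated counts were summed per gene by GENCODE release 44, for 225662 of 228754 transcripts, and rounded; 3092 transcripts had no entry, with 1.03% to 1.131% of the reads. R 4.3.3, edgeR 4.0.16 and limma 3.58.1 were used, with TMM scaling and filterByExpr (minimum count 10). All 14 libraries entered 1 model with 7 groups, since 2 libraries a group leave few degrees of freedom, and the quasi-likelihood F test was adjusted by Benjamini-Hochberg over 15426 genes. Calls needed an adjusted p under 0.05 together with a log2 change of 1 or more in size, and calls at any fold were counted as well. CPM are TMM-scaled. Differences from a single control used log2(CPM + 0.5). For a gene at 0 reads in a group, a floor of 3 counts per group of libraries gave a lower bound on the fold, for counting error alone. The fit was tested on simulated data.

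The members were chosen by sample label, but earlier results of these data were known when they and the gene lists were chosen. The rule for named genes took the genes with an adjusted p under 0.05, up to 8 each way past 2-fold at an unadjusted p under 0.05 without overlap and with a mean of 5 CPM or more on the higher side, the genes the study names, the 4 genes of each list with the smallest p, and genes called in the direct comparisons. The text names those from the first, study and list parts (marker lists apart), except 1 that is not reported here, and examples of the others, chosen after their values were seen, as were other list members. Alternatives were DESeq2 1.42.0, its size factors, no filter, an unadjusted p, a length offset, no mitochondrial genes, a GC and length correction (loess span 0.5), the replicate block, fewer libraries and each library left out. Leaving out libraries of the groups not compared was added after the data were seen.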

Additional observations from a re-analysis of the deposited data

Results flagged for a closer look

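RBI2 30 min differed from the other treated groups beyond the adjusted threshold in the genes below, by a direct test in edgeR's quasi-likelihood fit with no control library in the contrast. Against CX-5461 30 min, ENSG00000258964 was at least 101-fold lower and H4C3 had a log2 fold change of -2.87. Against RBI2 10 min, the log2 fold change was 2.93 for IGHV3-15, which stood at 15.02 and 15.97 CPM against 1.94 and 2.10 CPM and at 18.5 and 14.6 CPM in the controls. IGHV3-15 was also low in CX-5461 10 min, at 4.58 and 3.67 CPM. In the contrast with RBI2 10 min the log2 fold change was -1.57 for SMAD7, -1.31 for BHLHE40, -1.28 for ID2, -1.30 for SKIL, 1.03 for SPRY1 and 1.25 for the antisense gene PRR7-AS1. ENSG00000258964 was at least 85.1-fold lower than in RBI2 10 min and IKBKGP1 at least 68.9-fold lower. Against RBI2 120 min, ENSG00000262526 was at least 272-fold lower and ENSG00000258964 at least 78.9-fold lower. ENSG00000262526 also had no reads in RBI2 10 min and CX-5461 30 min, and had reads in CX-5461 10 min and CX-5461 120 min.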

How the results depend on the processing

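With 2 libraries a group and adjusted p-values close to 0.05, the number of genes past the threshold depended on the setting more than their direction did. Against the control, 6 genes were called and 11 at any fold. These became 28 and 908 with DESeq2, 447 and 2292 without a filter, 1 and 1 with the length offset, 2 and 29 with the GC and length correction, and 0 and 0 with the 4 libraries alone. The 28 and 908 of DESeq2 held 2 of the 6 and 7 of the 11. An unadjusted p gave 341 calls in edgeR and 287 in DESeq2 without a filter. Leaving out 1 library gave 0 to 1071 calls, and 0 to 6228 at any fold: 1071 and 6228 without control replicate 1, 2 and 4 without control replicate 2, 0 and 0 without RBI2 30 min replicate 1, 3 and 3 without RBI2 30 min replicate 2, and 1 to 4 and 1 to 7 without a library of another group. Without control replicate 2 the genes at any fold were CLK1, HSPA1B, ENSG00000258964 and IKBKGP1. A group left with 1 library was assumed to vary like the others. All 11 genes kept their direction in every setting run, and the cause of the changes in count was not tested.

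Deviations of same-numbered libraries from their group means correlated little across genes (r = 0.07 between control and RBI2 30 min, -0.18 to 0.18 over all pairs of groups). This cannot show that the libraries were not paired, since a difference within 1 group, as between the 2 controls, can hide a pairing. The replicate block left 1 call against the control and 1 at any fold, and 2 and 21 with the GC and length correction.

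Against CX-5461 30 min, 2 calls became 12 with DESeq2, 164 with DESeq2 without a filter at an unadjusted p, 223 with edgeR at an unadjusted p, 196 without a filter, 23 with 4 libraries, and 0 to 3 with 1 library left out (0 without RBI2 30 min replicate 1, 1 without CX-5461 30 min replicate 2). Against RBI2 10 min, 9 calls became 17, 119, 157, 151 and 48 in the same settings, 15 with the GC and length correction and 5 to 7 with 1 library left out (5 without RBI2 10 min replicate 2). Against RBI2 120 min, 2 calls became 25, 168, 247, 231 and 91, 5 with the GC and length correction, 6 with the replicate block as well, and 1 to 4 with 1 library left out (1 without RBI2 30 min replicate 1, 4 without replicate 2).

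Signs of named genes turned only where none had passed. With the length offset they were 0.01 for PHLDA1 and SRPK2, -0.22 for WDR59, 0.41 for TOP2A and -0.08 for ERBB2. With the GC and length correction they were -0.11 for GAPDH, -0.08 for SRF, -0.07 for DUSP7, 0.02 for PHLDA1, -0.13 for SKI, -0.19 for SOX12, -0.10 for TEAD3, -0.09 for AMOTL2, -0.06 for NFKB2, -0.14 for SLC7A5, 0.03 for TAF1D, 0.01 for SNHG1 and -0.08 for ERBB2. With the replicate block as well they were the same except for 0.03 for PHLDA1, -0.12 for SKI and -0.05 for NFKB2. With 1 library left out, the value turned for 4 of the genes named by rule for the control comparison: without control replicate 1 and without control replicate 2 it was 0.26 and -0.30 for PDGFRB, 0.16 and -0.05 for GAPDH, -0.47 and 0.11 for CD68, and -0.77 and 0.08 for ACTA2. Of genes named in the text outside that rule, the difference from control replicate 1 and control replicate 2 was 0.12 and -0.31 for CLK2, 0.13 and -0.09 for FOXK2, -0.03 and 0.08 for DUSP1, 0.44 and -0.26 for SKIL, 0.19 and -0.21 for SPRY1, and -0.25 and 0.08 for IGHV3-15.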
